A study of Bos taurus with 35 samples.

Results

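HBB (ENSBTAG00000037644) and HBA (ENSBTAG00000051412), the genes of the beta and alpha globin chains of adult haemoglobin, were followed in the *longissimus thoracis* (*LT*), the large muscle along the back, of 7 heifers *post-mortem*. They are 2 of the 27607 genes in the count table, and both were among the 14630 genes that passed the filter on low counts. Both were chosen by their symbols in the study's list of differentially expressed (DE) genes, in which they stand as upregulated at 48 h against 0 h. The levels and fold changes of HBB and HBA below are therefore descriptions, with no test, and every comparison with 0 h uses the same 7 libraries of that time point. The animals were British Continental crossbred heifers of 525 to 635 kg, bled at slaughter, and their carcasses hung in a refrigerated cooler. No group was treated, and time after death is what sets the groups apart. From the left side of each carcass a core was taken at 0 h (45 min after death), 6, 24, 48 and 72 h. Each core gave its own RNA and its own library, which makes 35 libraries with each animal present once per time point. A later core is another piece of the same muscle and not the same tissue measured again, so that differences between time points also hold differences between pieces of one carcass.

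Haemoglobin is built of pairs of alpha and beta chains, each with a haem group that binds oxygen. Its mRNAs are made in precursors of red cells in the bone marrow and persist in reticulocytes, the youngest red cells. Muscle fibres store oxygen with myoglobin, another protein of the family. The genes HBB and HBA lie in separate gene clusters. In the RefSeq annotation of the assembly ARS-UCD2.0, which is not the assembly the reads were mapped to, HBB is placed among HBE1, HBE4, HBE2 and HBG, while HBA has HBM on one side and HBA1, another alpha globin gene, on the other. Reads shared by HBA and HBA1 cannot be given to one gene, so that the HBA counts are uncertain as a measure of all alpha globin mRNA.

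Total counts ranged from 20568418 to 104275821 per library, and 3 counts, taken as the detection limit, corresponded to between 0.0301 and 0.152 CPM (counts per 1000000 counts of a library, with TMM normalization, a correction for library composition). The samples carried the markers of the labelled tissue: 4 muscle fibre genes could be named (CKM, TNNT1, TNNT3 and MYLPF), and together they reached 29710 to 36220 CPM at 0 h. Fewer cells of one kind in a core and less RNA per cell cannot be told apart in such bulk samples.

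At 0 h HBB ranged from 0.0346 to 3.13 CPM with a median of 0.155 CPM (2 to 68 counts, n = 7). The 6 h cores held 0.0485 to 3.42 CPM, median 0.399. The 24 h cores held 0.0764 to 5.78 CPM, median 0.28. At 48 h the range was 0.0503 to 58.0 CPM with a median of 4.19 CPM (2 to 4942 counts), while the 72 h cores held 0.152 to 5.04 CPM, median 0.261. The median was thus highest at 48 h and lay near the earlier medians at 72 h, although HBB was higher at 72 h than at 0 h in 7 of 7 animals. The ranges of all 5 time points overlapped. Ordered by median from 0 h over 72, 24 and 6 h to 48 h, no 2 neighbours were separated by more than the spread between animals. At 48 h 5 of the 7 cores lay above the highest core of 0 h, against 1 core each of 6 and 24 h and 2 of 72 h. HBB was below 1 CPM in 23 of the 35 libraries and above 10 CPM in 1.

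The time courses of HBB differed between carcasses. The 5 cores of animal 101, in order of time, held 0.101, 0.165, 0.146, 58.0 and 0.261 CPM of HBB, so that a single core held nearly all of its HBB. Those of animal 103 held 0.444, 0.399, 0.361, 6.61 and 0.628 CPM. In animal 104 the levels were 0.155, 0.278, 0.0764, 4.19 and 0.189 CPM in the same order, and in animal 107 they were 0.0346, 0.543, 0.28, 3.24 and 0.21 CPM. These 4 carcasses shared the shape of one high core at 48 h between low cores. The other 3 did not have it. Animal 201 stayed low throughout, with 0.0998, 0.0485, 0.169, 0.0503 and 0.152 CPM, and its 48 h core held 2 counts of HBB. Animal 202 was high from the start, with 3.13, 3.42, 5.78, 5.82 and 5.04 CPM. Animal 206 was in between, with 0.852, 0.657, 1.49, 1.8 and 3.56 CPM, and its highest core was that of 72 h. Animal 202 thus had the highest HBB of the 7 carcasses at every time point except 48 h, where animals 101 and 103 were higher.

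**Figure D1:**
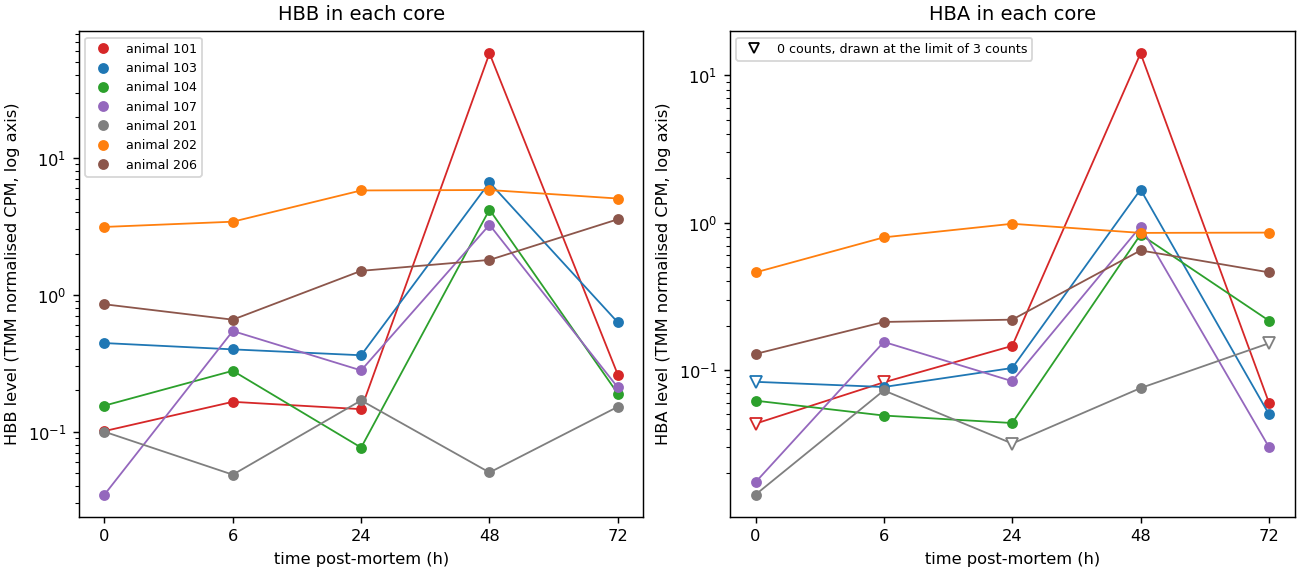
TMM normalised CPM of HBB (left) and HBA (right) in each of the 35 cores, on a log axis, against time *post-mortem* in hours (time points evenly spaced). Each colour is 1 animal, and lines join cores of the same carcass. Open triangles are libraries with 0 counts, drawn at the limit of 3 counts. The 48 h core of animal 101 stands at 58.0 CPM of HBB and 14.1 CPM of HBA, animal 202 is high at all time points, and animal 201 stays low.

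HBA was measured on far fewer counts. It had 0 counts in 5 libraries, 3 counts or fewer in 13 and fewer than 1 CPM in 33 of the 35. At 0 h it ranged from 0 to 0.46 CPM with a median of 0.0173 CPM (0 to 10 counts, n = 7). The 6 h cores held 0 to 0.796 CPM, median 0.0767, and the 24 h cores 0 to 0.984 CPM, median 0.103. At 48 h the range was 0.0754 to 14.1 CPM with a median of 0.853 CPM (3 to 1203 counts), and the 72 h cores held 0 to 0.857 CPM, median 0.0601. All ranges overlapped here too, and 6 of the 7 cores of 48 h lay above the highest core of 0 h. The filter on low counts asked for 0.249 CPM, before TMM normalization, in enough libraries, and HBA reached this in 6 libraries of 48 h, in 2 of 72 h and in 1 each of the other time points. HBA therefore entered the test largely through the time point at which it is high. HBB reached it in 3, 5, 4, 6 and 4 libraries from 0 to 72 h.

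The carcasses stood in nearly the same order for HBA as for HBB. In animal 101 HBA had 0 counts at 0 and 6 h, which allow up to 0.0433 and 0.0826 CPM, and then 0.146, 14.1 and 0.0601 CPM. Animal 103 had 0 counts at 0 h and 0.0767, 0.103, 1.68 and 0.0502 CPM at the later time points. Animal 202 measured 0.46, 0.796, 0.984, 0.853 and 0.857 CPM from 0 to 72 h. As with HBB, the 48 h cores of animals 101 and 103 were the highest of all, at 14.1 and 1.68 CPM, the first of them 8.41 times the second, and animal 202 was the highest carcass at 0, 6, 24 and 72 h. Animal 201 had at most 3 counts of HBA in any core. The 48 h cores of animals 104, 107 and 206 measured 0.832, 0.943 and 0.649 CPM. Over the 35 libraries the log2 CPM of HBB and HBA had a Pearson r of 0.91 (Spearman rho 0.82), and without the 48 h library of animal 101 the r was 0.88. These are descriptions over libraries that share 7 animals.

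Reads of both genes were concentrated in few libraries. Of the 8695 counts of HBB and HBA in the whole series, 7083 (81.5%) fell in the 7 libraries of 48 h and 6145 (70.7%) in the 48 h library of animal 101 alone, where they made up 71.4 CPM before TMM normalization. The other 6 libraries of 48 h held from 5 counts in animal 201 to 360 in animal 202.

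Set against the 0 h core of the same carcass, the 48 h core held 575 times as much HBB in animal 101 (95% interval 279 to 1431, exact, from 4942 and 7 counts; such intervals cover counting error only). The ratio was 93.6 in animal 107 (25.1 to 785, with 2 counts at 0 h), 27 in animal 104 (11.3 to 84.5) and 14.9 in animal 103 (8.94 to 26.6). These 4 ratios were well above 1. In animals 206 and 202 the ratios were 2.11 (1.34 to 3.28) and 1.86 (1.43 to 2.46), and in animal 201 the ratio was 0.504 with an interval from 0.0511 to 2.65 that holds 1. For HBA the 48 h core was at least 327-fold higher in animal 101 and at least 20.2-fold higher in animal 103, both with 0 counts at 0 h and computed against 3 counts in that library. The HBA ratio was 54.4 in animal 107 (8.91 to 2234), 13.4 in animal 104 (3.41 to 116), 5.29 in animal 201 (0.425 to 278), 5.04 in animal 206 (1.94 to 14) and 1.85 in animal 202 (0.923 to 4.12). Animals 107, 104 and 201 had 1, 2 and 1 counts of HBA at 0 h, below the limit of 3 counts. Their ratios use these counts as they are and cannot be ranked against the lower bounds of animals 101 and 103. The intervals of animals 201 and 202 hold 1.

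**Figure D2:**
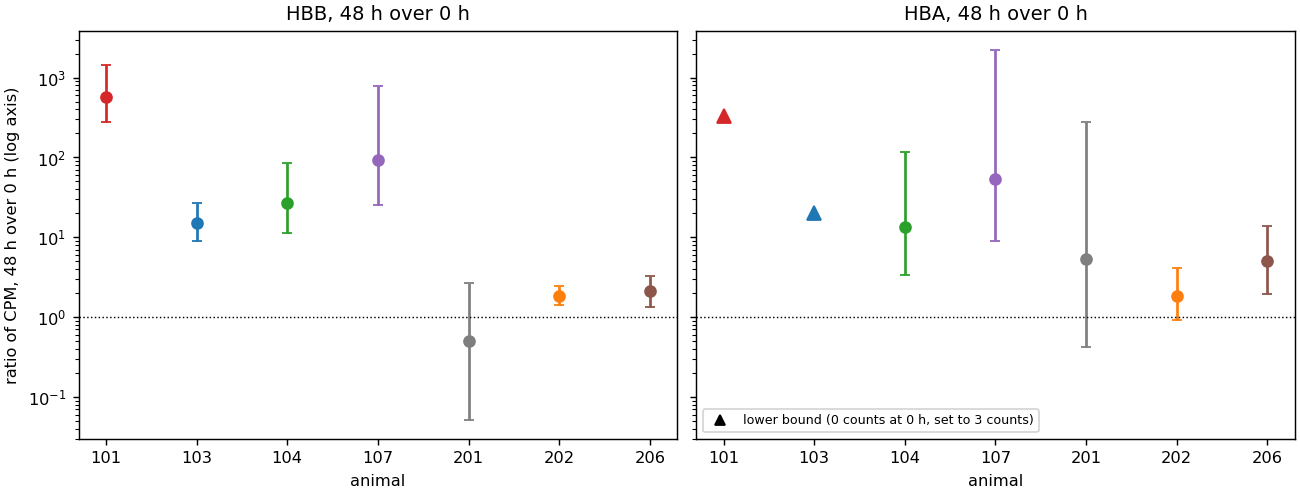
Ratio of CPM at 48 h to CPM at 0 h in each animal, on a log axis, for HBB (left) and HBA (right). Points are ratios with exact 95% counting intervals, triangles are lower bounds, and the dotted line marks a ratio of 1. HBB ratios run from 0.504 in animal 201 to 575 in animal 101.

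All 35 libraries were fitted in one model with animal as a blocking factor, which gave log2 fold changes against 0 h (log2FC) with their standard errors (SE). For HBB, log2FC was 0.35 (SE 0.98), 0.88 (SE 0.91), 4.59 (SE 0.83) and 1.09 (SE 0.9) from 6 to 72 h. For HBA it was 1.25 (SE 1.19), 1.55 (SE 1.1), 5.13 (SE 0.86) and 1.34 (SE 1.11). Outside 48 h every value was within 2 SE of 0. Genes were called up- or downregulated where the false discovery rate (FDR) was under 0.05 and the change more than 1.5-fold, which 2.96% of the tested genes reached upwards at 48 h. HBB and HBA were chosen by this comparison, so that nothing is read from their place in it. Both fitted values at 48 h exceeded the median difference within carcasses. The paired differences in log2 CPM (prior count of 2) between 48 and 0 h were 3.37 ± 3.19 (SD, n = 7) with a median of 3.78 for HBB and 3.55 ± 2.69 with a median of 3.08 for HBA, and ran from -0.62 to 8.67 for HBB and from 0.83 to 8.41 for HBA. HBB was higher at 48 h than at 0 h in 6 of 7 animals and HBA in 7 of 7, one of them, animal 201, on 3 counts against 1. At 72 h HBB was higher than at 0 h in 7 of 7 animals, with a median paired difference of 0.68 (0.23 to 2.01). In animal 201 this rested on 3 counts against 7 in a larger library. HBA was higher at 72 h in 6 of 7 animals, with a median of 1.14 (-0.43 to 1.56).

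A single library set much of the size. Without the 48 h library of animal 101, a setting added after the values were seen, the fold change of HBB at 48 h went from 24.1 to 8.54 (log2FC 3.09, SE 0.57) and that of HBA from 35.1 to 11.5 (log2FC 3.52, SE 0.64). Leaving out all cores of animal 101 gave log2FC of 3.08 (SE 0.61) and 3.41 (SE 0.65). Leaving out animal 202, the carcass with high globin throughout, gave the highest values, 5.24 (SE 0.87) for HBB and 5.97 (SE 0.83) for HBA. The SE were smaller without animal 101 than with it.

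**Figure D3:**
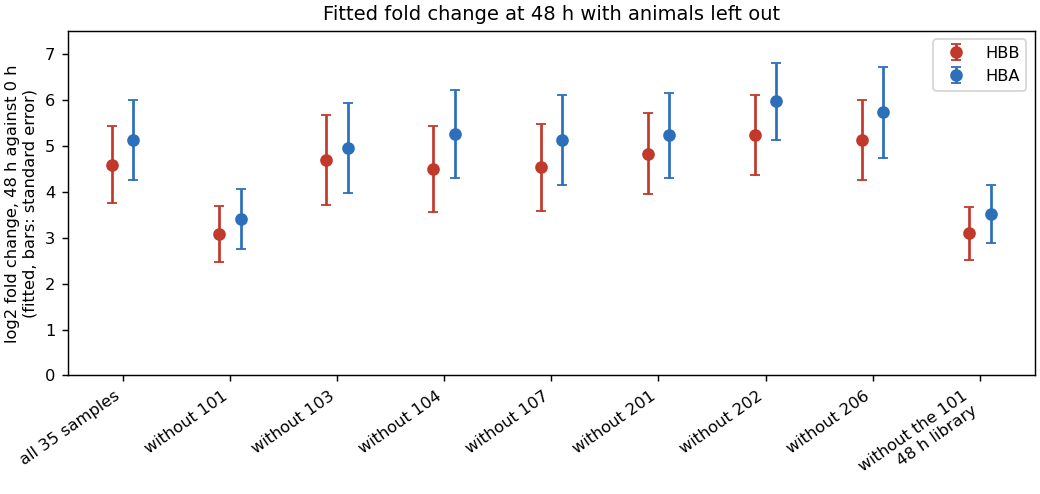
Fitted log2 fold change of HBB and HBA at 48 h against 0 h with all 35 libraries, with each animal left out, and with only the 48 h library of animal 101 left out. Bars are standard errors of the fit. Values without animal 101 or its 48 h library, between 3.08 and 3.52, are the lowest, and values without animal 202 are the highest.

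The share of HBA among the counts of both genes was not used to choose them, and it is compared here only between libraries, since gene lengths were not used. It was 18.6% over all 8695 counts (95% interval 17.7 to 19.4%, exact binomial) and 19.6% in the 48 h library of animal 101 (18.6 to 20.6%). In the other 34 libraries together it was 16.1% (14.7 to 17.6%), but animal 202 gave 1436 of their 2550 counts, and without this animal, a pool chosen after the values were seen, it was 18.4% (16.2 to 20.8%), an interval that overlaps that of animal 101. In animal 103 at 48 h it was 20.3% (15.3 to 26%), in animal 104 16.6% (11.5 to 22.8%) and in animal 107 22.5% (15.1 to 31.4%), all with intervals that overlap that of animal 101. Animal 202 was lower in the 3 cores with most counts, with 14.5% (11.7 to 17.8%), 12.8% (9.51 to 16.7%) and 14.5% (11.1 to 18.6%) from 24 to 72 h. The first 2 of these intervals end below that of animal 101 at 48 h, and the third ends at its lower edge. All intervals of the share, those of pooled libraries included, cover counting error only and not the spread between libraries. Whether they overlap is therefore no test of a difference between carcasses. Over the 25 libraries with at least 10 counts of both genes the share ranged from 0 to 53.3% with a median of 16.6%. Only 3 animals had 10 counts at both 0 h and a later time point. In these the mean share was 8.64% at 0 h, and it was higher by 11.2 ± 5.03 percentage points at 6 h (SD, n = 3, higher in 3 of 3). In the order of the later time points it was higher by 7.89 ± 12.5, 11.2 ± 10.3 and 2.49 ± 4.58 points, each in 2 of 3 animals. With 3 pairs an exact two-sided sign flip test cannot go below p = 0.25, so that these 4 differences stand as values only.

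**Figure D4:**
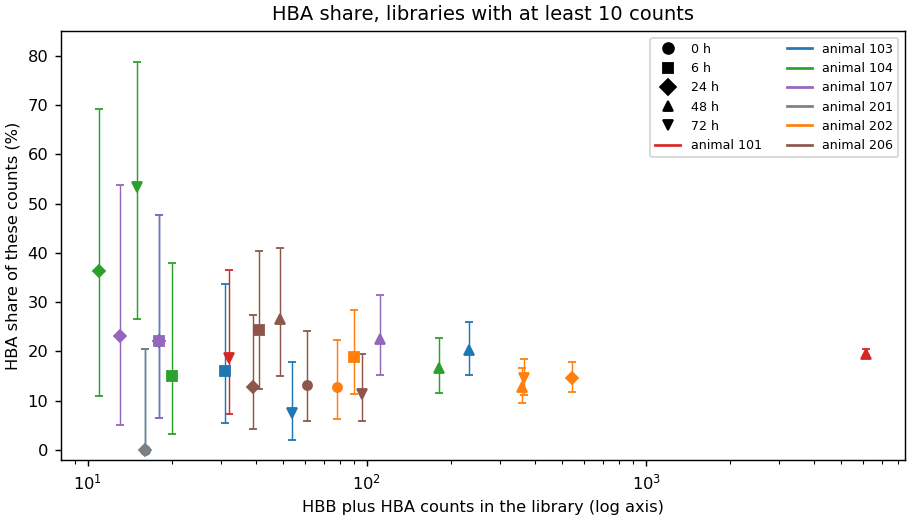
HBA share of the HBB plus HBA counts in percent, against the sum of these counts (log axis), in the 25 libraries with at least 10 counts. Colours are animals, symbols are time points and bars are exact 95% binomial intervals. The libraries with over 100 counts lie between 12.8 and 22.5%, and the wide scatter on the left comes with few counts.

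Other genes of red cells, of haem, of the other cells of blood and of macrophages were looked up in lists. The symbols at hand cover only genes that were DE at some time point in these same samples, so that counts of list members lean towards calls. Defining genes of red cells such as ALAS2, AHSP and SLC4A1 are not analysed here.

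The first list holds 14 genes that red cells share with muscle and other cells, of which 5 were named and tested. At 48 h none was upregulated, against 2.96% of all genes tested, and 2 were downregulated, with 6.3% of all genes downregulated, and the median log2FC was -0.51 against a median near 0 over all genes. Scaling by library size alone, without TMM, moved the share of upregulated genes among all calls from 32 to 18.7% at 48 h and from 38.9 to 17.8% at 72 h, and the median log2FC of all genes at 72 h to -0.16. No called gene of the lists changed direction with it. TFRC, the transferrin receptor, through which cells take up iron, fell from 429 ± 71.4 to 229 ± 108 CPM (log2FC -1.05, SE 0.26, FDR = 0.00183). SPTB, the beta chain of spectrin and also present in muscle, fell too (log2FC -0.66, SE 0.2, FDR = 0.00791). GYPC, glycophorin C of the red cell membrane, was higher in 7 of 7 animals but below the fold change threshold (log2FC 0.46, SE 0.08, FDR = 4.34e-05). At 72 h GYPC was upregulated (log2FC 0.86, FDR = 3.86e-10), with 9.8% of all genes upregulated, and SPTB, EPB41, BPGM and TFRC were downregulated, with 15.4% of all genes downregulated. EPB41 encodes protein 4.1 of the membrane skeleton, and BPGM encodes bisphosphoglycerate mutase.

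Of 9 genes of haem synthesis 1 was named, CPOX, coproporphyrinogen oxidase. Its log2FC was -0.57 at 48 h (SE 0.1, FDR = 7.7e-05), short of the fold change threshold, and it fell by 1.02 on the log2 scale at 72 h (FDR = 2.66e-09). Of 13 genes of haem and iron handling 7 were named and tested. At 48 h 4 of them were downregulated and none upregulated, with 6.3% of all genes downregulated and 2.96% upregulated. Their median log2FC was -0.61. CD163, the macrophage receptor that takes up haemoglobin bound to haptoglobin, had 13.3 ± 7.81 CPM at 0 h and fell to 5.74 ± 4.09 CPM (log2FC -1.29, SE 0.19, FDR = 8e-06). LRP1, a receptor for haem bound to haemopexin, and TF, transferrin, were also downregulated, with log2FC of -0.61 (FDR = 1.47e-05) and -2.9 (FDR = 7.4e-06), as was TFRC, named above. TF was low, at 0.867 ± 0.632 CPM at 0 h, 0.0851 ± 0.0451 CPM at 24 h and 0.0983 ± 0.0735 CPM at 48 h. The later means lie within the range of the detection limit, so that the size of its fall is uncertain. At 72 h CD163, LRP1, TF and TFRC were again downregulated, with 15.4% of all genes downregulated. BLVRB, FTH1 and FTL, which encode biliverdin reductase B and the chains of the iron store ferritin, were upregulated, with 9.8% of all genes upregulated. At 24 h TF alone was downregulated (log2FC -3.19, FDR = 1e-05), with 0.95% of all genes downregulated. At 6 h no member of these lists or of the blood cell lists below was called, with 0.349% of all genes upregulated and 0.185% downregulated.

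Markers on the lists of the other blood cells and of macrophages moved in different directions at 48 h. Of 18 T and NK cell genes 12 were named and tested, all of them from the study's list of DE genes, so that calls among them were to be found. Of these 12 genes 11 were upregulated at 48 h, with 2.96% of all genes upregulated, and 12 at 72 h, with 9.8%. Their median log2FC were 0.8 and 0.93. Genes of the lists without a symbol here were not counted, whether or not they passed the filter. ZAP70, a kinase of T cell receptor signalling, rose from 1.89 ± 0.26 to 4.2 ± 0.713 CPM at 48 h (log2FC 1.14, SE 0.13, FDR = 3.99e-07), and LCK and CD8A rose with log2FC of 1 and 0.89. ZAP70 and CD8A were already upregulated at 24 h, as was LTF of the neutrophil list, with 0.725% of all genes upregulated. Both named B cell genes, CD79A and CD79B, were upregulated at 48 h (log2FC 1.09 and 1.59). They were low, at 0.2 ± 0.0844 and 0.143 ± 0.0435 CPM at 0 h, in or near the range of the detection limit, so that the size of their rise is uncertain. At 72 h CD79B was upregulated (log2FC 1.67, FDR = 0.000504) and CD79A was not (log2FC 0.71, FDR = 0.0609). Of the 2 named platelet genes TUBB1 was upregulated at 48 h (log2FC 0.77, FDR = 0.0411), and without the 48 h library of animal 101 it kept nearly the same fold change but not the call (log2FC 0.74, FDR = 0.0763). Both TUBB1 and ITGA2B were upregulated at 72 h. Of 10 genes of monocytes and macrophages 8 were named and tested. Of these 8 genes 6 were downregulated at 48 h, with 6.3% of all genes downregulated, and 8 at 72 h, with 15.4%. Among them was CSF1R with log2FC -1.09 at 48 h (FDR = 3.76e-05). The summed level of the T and NK cell genes ran from 9.3 to 16.7 CPM at 0 h and from 19.8 to 26.6 CPM at 48 h. That of the monocyte and macrophage genes ran from 47.7 to 157 and from 35.8 to 76.1 CPM. Nothing is read from how far these ranges lie apart, since the genes could be named only as DE genes of the same samples. None of the 9 genes listed for endothelium was named. The part of any of these cells in the globin levels was not tested.

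Of 9 neutrophil genes 2 were named and tested, and S100A9, a subunit of the granulocyte protein calprotectin, was high in the same core as globin. In the cores of animal 101 it measured 0.288, 0.22, 0.146, 1.91 and 0.15 CPM in order of time, and the 48 h value was the highest of the 35 libraries. Animal 206 measured 0.723 to 1.2 CPM over its 5 cores, and the 48 h cores of the other animals held 0.0742 to 0.679 CPM. S100A9 passed the threshold at 48 h with all libraries (log2FC 0.99, SE 0.4, FDR = 0.0445) and did not without the 48 h library of animal 101 (log2FC 0.09, SE 0.3, FDR = 0.848). LTF, lactoferrin of neutrophil granules, was upregulated at 48 h in 7 of 7 animals (log2FC 1.03, SE 0.16, FDR = 1.55e-05) with or without that library (log2FC 0.91, FDR = 8.95e-05). Its levels were highest in animal 107, at 2.1 CPM at 0 h and 6.22 CPM at 48 h. The cores of animal 101 held 0.404, 0.44, 0.547, 1.15 and 0.601 CPM of LTF in order of time, so that its 48 h core was the highest of that carcass. The summed level of both genes was 0.414 to 2.62 CPM at 0 h and 0.686 to 6.9 CPM at 48 h. Of the 41 list genes tested, 37 had the same call at 48 h without the library of animal 101, while S100A9, TUBB1 and TNNT3 lost theirs and KLRD1 gained one. The fold changes of TUBB1 and of TNNT3 (log2FC 0.63 with and 0.58 without the library, FDR = 1.56e-05) were little changed, unlike that of S100A9.

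**Figure D5:**
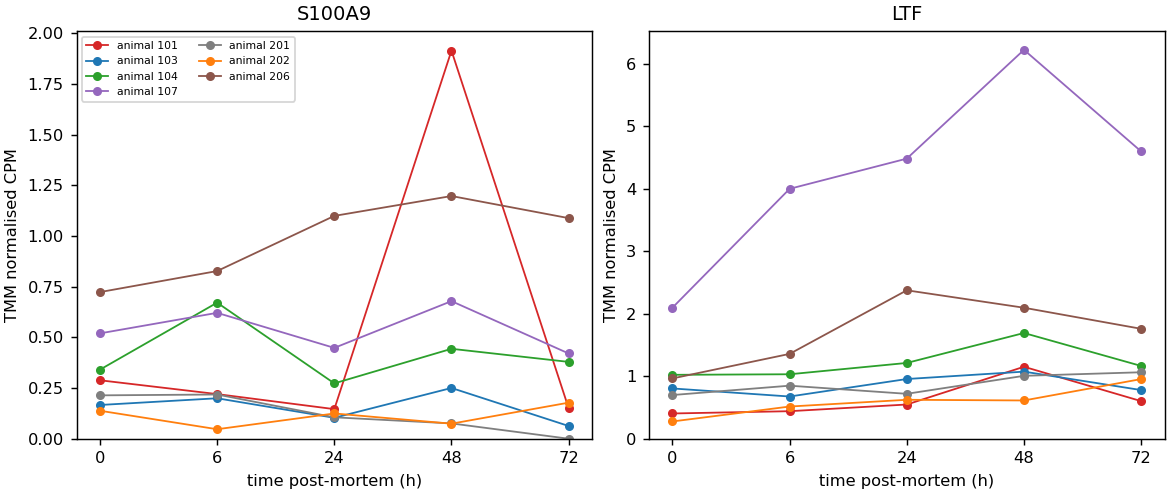
TMM normalised CPM of S100A9 (left) and LTF (right) in each core against time *post-mortem* in hours (time points evenly spaced), with 1 colour per animal and lines joining cores of the same carcass. S100A9 has its highest value, 1.91 CPM, in the 48 h core of animal 101, whereas LTF is highest at 48 h in animal 107.

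The genes whose log2 CPM was most like the mean log2 CPM of HBB and HBA over the 35 libraries reached a Pearson r of only 0.54 to 0.6 for the first 10, and none of the 10 had a symbol here. The first was ENSBTAG00000005614 (r = 0.6, at most 91.9 CPM). With Spearman's rho, 6 of the 10 were shared. When each carcass was set to its own mean, so that only differences between cores of the same animal counted, none of the 10 was shared, and the first gene was LTF with r = 0.69, and the first 10 also held ITGA10, an integrin chain (r = 0.63), S100A9 (r = 0.62) and CIB2 (r = 0.59). Before each carcass was set to its own mean, r was 0.08 for LTF and 0.31 for S100A9. These values are descriptions over libraries that share animals and time points. Without the 48 h library of animal 101 only 4 of the first 10 genes by Pearson r, with no carcass set to its mean, were shared. The values within carcasses were not computed without that library.

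At 48 h the globin level of the 7 animals was compared with the mean log2 CPM of each of 9 lists. The mean log2 CPM of HBB and HBA ran from -3.27 in animal 201 to 4.84 in animal 101. The correlations are given as descriptions with no test, since the 48 h levels of HBB and HBA are those by which the genes were chosen. For the 8 lists of red cell, haem and blood cell genes Pearson's r lay between -0.35 and 0.42, with -0.25 for the red cell genes (Spearman rho 0) and 0.42 for the neutrophil genes (rho -0.11). Without animals 101 and 201, the 2 farthest from the median globin level, these last r were 0.59 and -0.64, so that they rest on those animals. With the 4 muscle fibre genes r was -0.81 and rho -0.96, and r was -0.99 without the same 2 animals. The muscle fibre level was 13 in animal 101 and 13.5 in animal 206 on the log2 scale, the lowest and the highest of the 7. This mean does not stand for each of its genes. MYLPF was highest in animal 101, at 10160 CPM, against 9222 CPM in animal 206. CKM and TNNT3 measured 15710 and 19330 CPM in animal 101, and 17440 and 20460 CPM in animal 206. Between animals at 48 h TNNT1 measured 3303 ± 1310 CPM and CKM 17820 ± 2119 CPM. The negative r holds for the mean of the 4 genes across animals at 48 h. Over the 35 libraries, with each carcass set to its own mean, r with the globin level was 0.43 for CKM, 0.42 for MYLPF, 0.42 for TNNT3 and -0.125 for TNNT1.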

How the data were processed

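RNA from 35 cores of *LT* was sequenced as paired reads. Per the labels and the methods, the authors trimmed reads with Trimmomatic 0.39, mapped them with STAR 2.7.0f to ARS-UCD1.2 and counted them over exons of Ensembl genes with featureCounts 1.6.4. The deposited values are raw counts. Reads with several mapping places are left out under the options given. The libraries were stranded, the deposited table is named as holding the reverse strand, and the methods speak of sense strand counts, although the counting option they print is the unstranded one.

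Genes were kept by filterByExpr (minimum count 10, time point as group; 14630 of 27607). The quasi-likelihood test of edgeR 4.0.16 (R 4.3.3) with TMM factors (0.846 to 1.11) was fitted to all samples, each time point against 0 h, with animal as block. CPM are TMM normalised, and log2 CPM have a prior count of 2. The animal number pairs the samples, since same-numbered samples come from the same carcass (median r of deviations 0.58 over 70 pairs, -0.12 between animals). The block takes out differences in level between carcasses. P-values of the fit set the change between time points against the spread that is left. That spread holds differences between carcasses in the change and differences between cores. Symbols came from the study's list of DE genes (3106 IDs with a symbol), because 0 genes of the RefSeq table carry an Ensembl ID. Alternatives were other normalization factors and filters, DESeq2 1.42.0, no block, fits of 2 time points and leaving out animals. Sequences, gene lengths and coordinates were not used here.

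HBB, HBA and the gene lists were chosen with earlier results of these data known. The rule named HBB and HBA, all tested genes of the globin and red cell defining lists, up to 3 genes with the lowest FDR at 48 h of each other list, and the 10 genes most like the globin level. Other genes named were picked after their values were seen. Some genes of these lists, including those tested of the red cell defining list, are not reported here and were left out of the counts and levels of the lists.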

Additional observations from a re-analysis of the deposited data

Results flagged for a closer look

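Within the 7 libraries of a time point, a value was marked where its gap to the nearest other library, divided by the range, exceeded Dixon's limit of 0.568 (0.71 for 5 libraries). Of 24 groups examined 15 were marked. No chance rate is set beside this, since the genes were chosen with their values known and the groups share animals. In animal 202 these were HBB at 3.13 CPM at 0 h, 3.42 CPM at 6 h and 5.78 CPM at 24 h, and HBA at 0.46, 0.796 and 0.984 CPM at the same time points. In animal 101 they were HBB at 58.0 CPM and HBA at 14.1 CPM, both at 48 h. On the log2 scale 0 of the 10 groups of HBB and HBA were beyond the limit. The HBA share of 53.3% in animal 104 at 72 h stood apart from the other 4 libraries and rests on 15 counts.

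Values of other genes were marked in the same way. LTF in animal 107 stood apart at 2.1 CPM at 0 h, 3.997 CPM at 6 h, 6.22 CPM at 48 h and 4.6 CPM at 72 h. S100A9 in animal 206 was marked at 1.1 CPM at 24 h and 1.09 CPM at 72 h.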

How the results depend on the processing

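The log2 fold changes of HBB and HBA were positive at every time point under each alternative that could be fitted, between 3.09 and 4.81 for HBB and between 3.52 and 5.46 for HBA at 48 h. HBA did not pass the filter of at least 1 CPM in 7 samples, nor the usual filter in the fits of only 2 time points other than 48 h, so these gave no value for it. Leaving out each animal gave 3.08 to 5.24 for HBB and 3.41 to 5.97 for HBA at 48 h.

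Without animal as a replicate block, calls fell to 10 up and 9 down at 6 h (51 and 27 with it). At 24 h they fell to 22 up and 79 down (106 and 139), and at 48 h to 296 up and 682 down (433 and 922). Along with them, upregulated blood cell genes fell to 1 at 24 h (3 with the block) and 10 at 48 h (16), and downregulated red cell genes to 1 at 48 h (2). With the filter of 1 CPM, under which fewer genes were tested, calls were 70 up and 92 down at 24 h and 252 up at 48 h, with 0 haem genes down at 24 h, 9 blood cell genes up at 48 h and 10 blood cell genes up at 72 h. With library size only, 702 genes were upregulated at 72 h, 1 of the haem lists and 8 of the blood cell lists among them (1434, 3 and 16 with TMM), and the cause was not tested.

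Leaving out each animal gave 20 to 47 calls up and 16 to 39 down at 6 h, 69 to 94 up at 24 h, 1 to 4 blood cell genes up at 24 h and 1 to 3 red cell genes down at 48 h. The lowest of these came without animal 107, and also without animal 206 for those at 24 and 48 h. Without animal 101 there were 26 calls up at 6 h. Pearson's r at 48 h ranged from -0.425 to 0.108 for red cell genes, -0.427 to 0.0884 for haem synthesis, -0.308 to 0.37 for haem and iron handling, -0.700 to 0.457 for T and NK cells and -0.914 to -0.611 for muscle fibres. The sign of the first 4 turned without animal 201, and that of T and NK cells also without animal 103 (0.0077). For muscle fibres r was -0.889 without animal 201 and -0.914 without animal 206. The difference in HBA share at 6 h was 10.7 points without the pairing, and with at least 50 counts only the one at 72 h could be computed (0.025 points). Depth limits HBA most, with 3 counts or fewer in 13 libraries.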
